A study of Homo sapiens with 3 samples.

Results

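The transcription factor NRF2, its inhibitor KEAP1 and 7 antioxidant genes that NRF2 is known to activate were examined in PANC-1 cells, an established line from a human pancreatic cancer of epithelial origin. These 9 genes were taken by symbol (NFE2L2, KEAP1, HMOX1, NQO1, GCLC, GCLM, TXNRD1, SRXN1 and SLC7A11) from a table of 51136 genes, and each of them had reads in every library. RNA-seq had been run on 3 libraries of the same line, 1 per condition: control cells, for which the labels give no agent, cells given 200 μM ginsenoside Rg3 (Rg3), a saponin of ginseng, and cells given 50 μM tamoxifen (TAM), an estrogen receptor modulator, with 24 h stated for both agents. The labels name no vehicle, and the number of cultures behind a library is not given in the sources used here. The totals of reads counted on genes were 11300766 for control, 12861693 for Rg3 and 11321442 for TAM.

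NRF2, encoded by NFE2L2, is held low in resting cells because KEAP1 hands it to a CUL3 ubiquitin ligase for destruction. Oxidants and electrophiles modify KEAP1, after which NRF2 gathers in the nucleus, pairs with small MAF proteins and binds antioxidant response elements near genes for glutathione synthesis, thioredoxin recycling, quinone reduction and heme breakdown. Much of this control acts on the NRF2 protein, which RNA-seq does not measure. In pancreatic cancer the pathway is known for its part in redox balance and drug resistance.

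Since no condition had a second library, no test between conditions was possible, and no difference below has a replicate check. Each gene was compared after scaling of the libraries by the trimmed mean of M-values (TMM), and a gene was called higher or lower when its fold was over 1.5 or under 0.67, the fold limits of the study's methods, given 10 counts or more in 1 of the libraries compared. Intervals are exact 95% intervals that cover counting error only. The epithelial and mesenchymal markers KRT8, KRT18, KRT19, KRT7 and VIM all had reads and summed to 55389 to 82734 counts a library, while endothelial and acinar or endocrine markers summed to 2 to 6 counts. All 5 epithelial and mesenchymal markers were lower in the Rg3 library, beside 19.5% of all genes compared. After a correction for GC content and length, given below, 4 of the 5 were lower, beside 10.1% of all genes. With TAM, 1 of the 5 was higher (KRT7) and 1 lower (KRT19), beside 17.4% and 23.8% of all genes. Among 4 fibroblast markers, COL1A1 held nearly all of the 737 to 1856 summed counts, and LUM was at 0 in the control and TAM libraries. Among 4 leukocyte markers, CD68 held nearly all of the 426 to 1101 counts, with CD3E and LYZ at 0 in each library.

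The sequence that NRF2 is known to bind is shown first for these genes. The core of the antioxidant response element, TGACNNNGC, was searched on both strands in RefSeq promoter windows of 300 bases, from 250 bases before to 50 bases after a transcription start (build GRCh38.p14). Windows were held for 7 of the 9 genes, and HMOX1 and SLC7A11 had no entry. The core was found in 4 of the 10 windows of these genes, belonging to GCLM, TXNRD1 and KEAP1, against 3613 of 26713 windows (13.5%) over all genes of the count table with a window. In the windows of NFE2L2, GCLC, NQO1 and SRXN1 these letters did not occur, which leaves sequence outside the windows unexamined. The 4 stretches that hold a core follow, 140 bases each, 5′ to 3′ on the strand of the gene, with the core in capitals. Where a core lies on the other strand, its reverse complement is in capitals. No match overlapped the AP-1 motif TGANTCA.
GCLM, chr1:93909411-93909550, minus strand: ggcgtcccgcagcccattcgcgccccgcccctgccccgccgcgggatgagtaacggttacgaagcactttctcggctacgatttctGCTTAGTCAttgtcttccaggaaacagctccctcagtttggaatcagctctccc
TXNRD1 upstream start, chr12:104215659-104215798, plus strand: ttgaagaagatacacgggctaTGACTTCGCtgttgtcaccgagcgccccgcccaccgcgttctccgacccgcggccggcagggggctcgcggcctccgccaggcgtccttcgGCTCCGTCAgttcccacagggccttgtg
TXNRD1 downstream start, chr12:104286912-104287051, plus strand: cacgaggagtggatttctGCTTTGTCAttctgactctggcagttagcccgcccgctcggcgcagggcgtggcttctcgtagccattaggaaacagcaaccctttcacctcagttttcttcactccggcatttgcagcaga
KEAP1, chr19:10502752-10502891, minus strand: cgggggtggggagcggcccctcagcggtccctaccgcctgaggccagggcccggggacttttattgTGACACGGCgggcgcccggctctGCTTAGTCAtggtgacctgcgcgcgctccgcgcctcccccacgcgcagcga

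The match of GCLM lay 34 to 26 bases before the start, on the other strand. TXNRD1 held 2 matches at its upstream start, the first of them 99 to 91 bases before it and the second across the start itself, and 1 match at its downstream start, 102 to 94 bases before it. The window of KEAP1 with matches held 1 on each strand, and its other window held none. A match of letters does not show binding, and no binding was measured.

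The genes lie on 9 different chromosomes. In GENCODE 29 on GRCh38, NFE2L2 spans chr2:177227595-177392697, KEAP1 chr19:10486120-10503741, NQO1 chr16:69706996-69726951, GCLC chr6:53497341-53616970, GCLM chr1:93885205-93909456, SRXN1 chr20:646615-653370 and SLC7A11 chr4:138164097-138242349, all on the minus strand. HMOX1 at chr22:35380361-35394214 and TXNRD1 at chr12:104215779-104350305 lie on the plus strand. Reads were counted over whole genes, so that isoforms, among them those from the separate starts of TXNRD1, could not be told apart.

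Levels of different genes were compared per length, as reads per kilobase of the longest GENCODE 29 transcript and per 1000000 counted reads (RPKM). In control PANC-1 cells, NQO1, a quinone reductase, and KEAP1 stood highest, at 61.8 RPKM (59.2 to 64.6) and 61.7 RPKM (59.0 to 64.4), and could not be ordered within counting error. TXNRD1, the cytosolic thioredoxin reductase, followed at 32.6 RPKM. SRXN1, the sulfiredoxin that repairs over-oxidised peroxiredoxins, was at 25.9 RPKM and HMOX1, the heme oxygenase, at 18.3 RPKM. NFE2L2 itself was at 14.7 RPKM. The genes of glutathione supply were lowest, with GCLC at 4.69 RPKM, GCLM at 1.71 RPKM and SLC7A11 at 0.395 RPKM (0.286 to 0.531). All other neighbours in this order had intervals that did not overlap.

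In the Rg3 library the order differed at the top, where TXNRD1 at 87.7 RPKM and NQO1 at 85.9 RPKM overlapped within counting error, ahead of KEAP1 at 44.2 RPKM. NFE2L2 at 32.9 RPKM and SRXN1 at 32.6 RPKM also overlapped. HMOX1 stood at 16.0 RPKM. The bottom of the order was as in the control library, with GCLC at 8.63 RPKM, GCLM at 4.29 RPKM and SLC7A11 at 2.52 RPKM. In the TAM library KEAP1 led at 79.9 RPKM, followed by NQO1 at 68.0 RPKM, SRXN1 at 30.4 RPKM, TXNRD1 at 25.3 RPKM and HMOX1 at 19.0 RPKM. NFE2L2 at 7.59 RPKM, GCLC at 2.69 RPKM, GCLM at 1.24 RPKM and SLC7A11 at 0.247 RPKM were the lowest there. Neighbours in the TAM order did not overlap within counting error.

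With Rg3, the regulator NFE2L2, both subunits of glutamate-cysteine ligase, the thioredoxin reductase TXNRD1 and the cystine transporter SLC7A11 were higher than in the control library, and the inhibitor KEAP1 was lower. HMOX1, NQO1 and SRXN1 were within the fold limits. Thus 5 of the 9 genes were higher and 1 lower, where 25.0% of all 16487 genes compared were higher and 19.5% lower. The median log2 fold change of the 9 genes was 0.74, and that of all genes compared was 0.04. These are counts over genes of single libraries and carry no p-value.

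Among the regulators, NFE2L2 was counted 473 times in control, 1208 times in Rg3 and 245 times in TAM cells. After scaling, these were 41.2, 83.9 and 24.6 counts per 1000000 (CPM), so that the Rg3 library was highest and the TAM library lowest. The difference was 2.04-fold with Rg3 (log2 fold change 1.03, 0.87 to 1.18). KEAP1 ran the other way, with 2059 counts in control, 1678 in Rg3 and 2674 in TAM (179, 117 and 269 CPM after scaling). Its log2 fold change with Rg3 was -0.62 (-0.72 to -0.53), an interval that includes the lower fold limit. Within a library the ratio of NFE2L2 to KEAP1 reads per length was 0.238 in control (0.215 to 0.263), 0.746 in Rg3 (0.692 to 0.803) and 0.0949 in TAM (0.0829 to 0.108). This ratio does not depend on the scaling between libraries, and its intervals did not overlap. The genes differ in base composition, however (45.6% GC in NFE2L2 and 60.3% in KEAP1), and after a correction for GC content and length, given with the results on base composition, their log2 fold changes with Rg3 were 0.73 and 0.01.

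In glutathione supply, SLC7A11, the xCT subunit that imports cystine for glutathione synthesis, had 43 counts in control, 312 in Rg3 and 27 in TAM. At 3.75, 21.7 and 2.71 CPM, the Rg3 library stood apart, while the intervals of the control and TAM libraries overlapped. The log2 fold change of 2.53 with Rg3 (2.07 to 3.03), or 5.79-fold, was exceeded by 18 of the 16487 genes compared. SLC7A11 shares 9.29% of its 50-base stretches with other annotated genes, among them SLC7A11-AS1 on the opposite strand. Whether strand was used in counting is not given in the sources used here. GCLM, the modifier subunit of glutamate-cysteine ligase, had 94 counts in control, 268 in Rg3 and 68 in TAM, and its log2 fold change with Rg3 was 1.18 (0.84 to 1.54). GCLC, the catalytic subunit, had 202, 423 and 116 counts in the same order, with a log2 fold change of 0.74 with Rg3 (0.49 to 0.99). Both subunits were highest in the Rg3 library, and the lower bound of GCLC lay inside the fold limits. The ratio of GCLC to GCLM reads per length was 2.74 in control (2.13 to 3.53), 2.01 in Rg3 (1.72 to 2.35) and 2.17 in TAM (1.60 to 2.98), and these intervals overlapped.

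In thioredoxin recycling, TXNRD1 had 1575 counts in control, 4826 in Rg3 and 1224 in TAM, or 137, 335 and 123 CPM. Its log2 fold change with Rg3 was 1.29 (1.21 to 1.37), and it had the most reads of the genes that were higher. SRXN1 had 790 counts in control, 1130 in Rg3 and 928 in TAM, and a log2 fold change of 0.19 with Rg3 (0.06 to 0.32). SRXN1 shares 84.7% of its 50-base stretches with another annotated gene on its strand, AL121758.1, so that its count depends on how shared reads were assigned.

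Among the enzymes of quinone and heme breakdown, NQO1 had 2035 counts in control, 3218 in Rg3 and 2242 in TAM, with a log2 fold change of 0.33 with Rg3 (0.25 to 0.42). NQO1 shares 18.1% of its stretches, mainly with a gene on the opposite strand, and whether strand was used in counting is not given in the sources used here. HMOX1, which opens the heme ring, had 376, 374 and 391 counts in control, Rg3 and TAM, nearly the same raw count in each library. Scaled to 32.7, 26.0 and 39.3 CPM, its log2 fold change was -0.33 with Rg3 (-0.54 to -0.12). Neither enzyme reached a fold limit with Rg3.

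**Figure D1:**
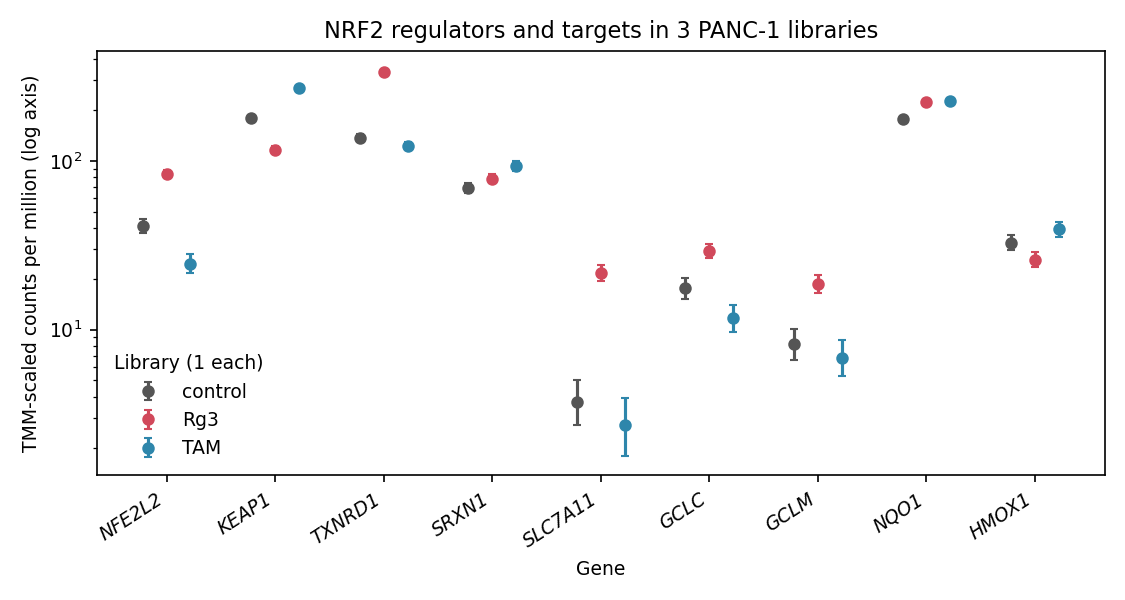
TMM-scaled level (CPM, log axis) of each of the 9 genes in the control, Rg3 and TAM libraries, with bars for exact 95% counting intervals (1 library per condition). NFE2L2, TXNRD1, SLC7A11, GCLC and GCLM are highest in Rg3, with SLC7A11 at 3.75 in control, 21.7 in Rg3 and 2.71 in TAM, and KEAP1 is lowest in Rg3 and highest in TAM.

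With TAM, none of the 9 genes was higher (17.4% of the 16079 genes compared were), and 2 were lower, NFE2L2 and GCLC (23.8% of all genes). NFE2L2 had a log2 fold change of -0.74 (-0.97 to -0.52) and GCLC of -0.59 (-0.94 to -0.26), and both intervals include the lower fold limit. KEAP1, at 0.58 (0.50 to 0.67), lay just inside the upper limit. SRXN1 had a log2 fold change of 0.44 (0.30 to 0.58), NQO1 of 0.35 (0.26 to 0.43) and HMOX1 of 0.26 (0.05 to 0.47). TXNRD1 was at -0.16 (-0.27 to -0.05), GCLM at -0.26 (-0.73 to 0.20) and SLC7A11 at -0.47 (-1.22 to 0.26), and the last 2 intervals include 0. The median of the 9 genes was -0.16 and that of all genes compared -0.02.

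**Figure D2:**
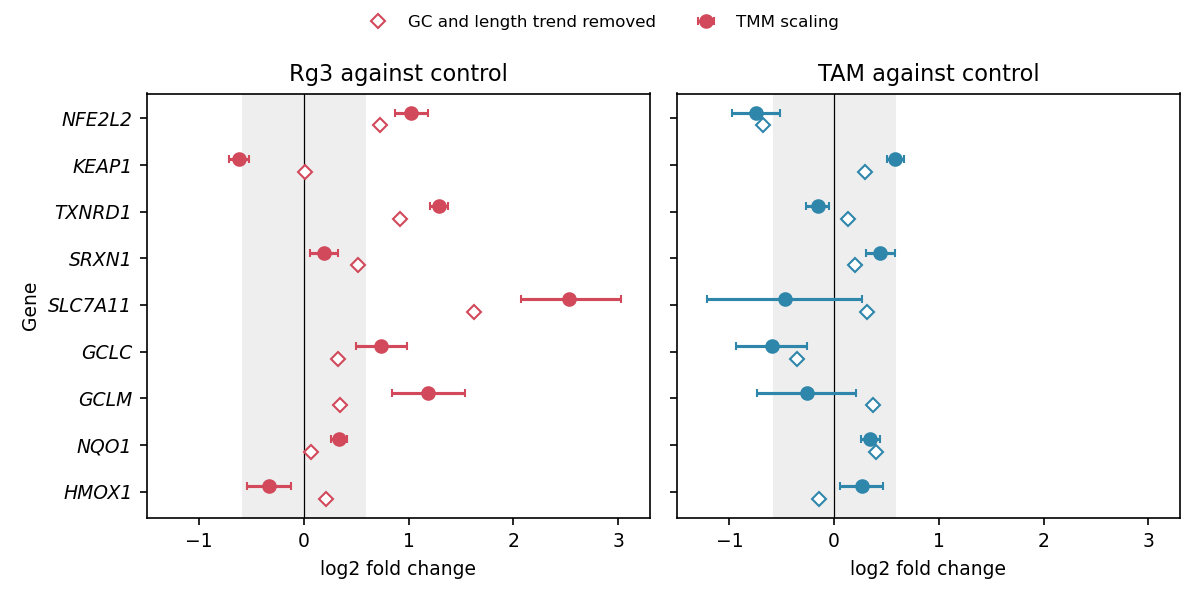
Log2 fold change of each of the 9 genes with Rg3 and with TAM, both set against control, before and after a trend on GC content and length was removed; filled circles carry exact 95% counting intervals, open diamonds are the values with the trend removed, and the grey band lies between the fold limits of 0.67 and 1.5. SLC7A11 with Rg3 moves from 2.53 to 1.63, KEAP1 with Rg3 from -0.62 to 0.01, and NFE2L2 lies above the upper limit with Rg3 and below the lower limit with TAM in both.

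Set against each other directly, without the control library, the TAM library was lower than the Rg3 library for 5 of the 9 genes (35.4% of the 16493 genes compared) and higher for 2 (30.0%). The doses of the agents differ, so that this compares 2 treatments as given. The lower genes were SLC7A11 at -3.00 on the log2 scale (-3.62 to -2.43), NFE2L2 at -1.77 (-1.97 to -1.57), TXNRD1 at -1.45 (-1.54 to -1.36), GCLM at -1.45 (-1.85 to -1.06) and GCLC at -1.33 (-1.64 to -1.03). The higher genes were KEAP1 at 1.21 (1.12 to 1.29) and HMOX1 at 0.60 (0.39 to 0.81). SRXN1 at 0.25 and NQO1 at 0.01 (-0.07 to 0.09) were within the limits.

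Fold changes in these libraries followed base composition, and the 9 genes followed it too. Over genes with 50 counts or more, Spearman's rho between the log2 fold change and the GC content of the longest transcript was -0.81 with Rg3 (11583 genes) and 0.51 with TAM (11022 genes). Over the 9 genes alone it was -0.92 with Rg3 and 0.73 with TAM. Genes share the library and are not independent replicates, so these values describe the libraries. The 5 genes that were higher with Rg3 had a GC content of 35.4% (SLC7A11), 37.3% (GCLM), 44.3% (GCLC), 44.8% (TXNRD1) and 45.6% (NFE2L2). The 4 others lay higher, at 46.0% (NQO1), 53.6% (SRXN1), 58.1% (HMOX1) and 60.3% (KEAP1). Genes under 40% GC had a median log2 fold change of 0.81 with Rg3 and -0.56 with TAM, and genes of at least 60% GC had -0.63 and 0.45. Base composition and the treatment cannot be told apart in a design with 1 library per condition.

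**Figure D3:**
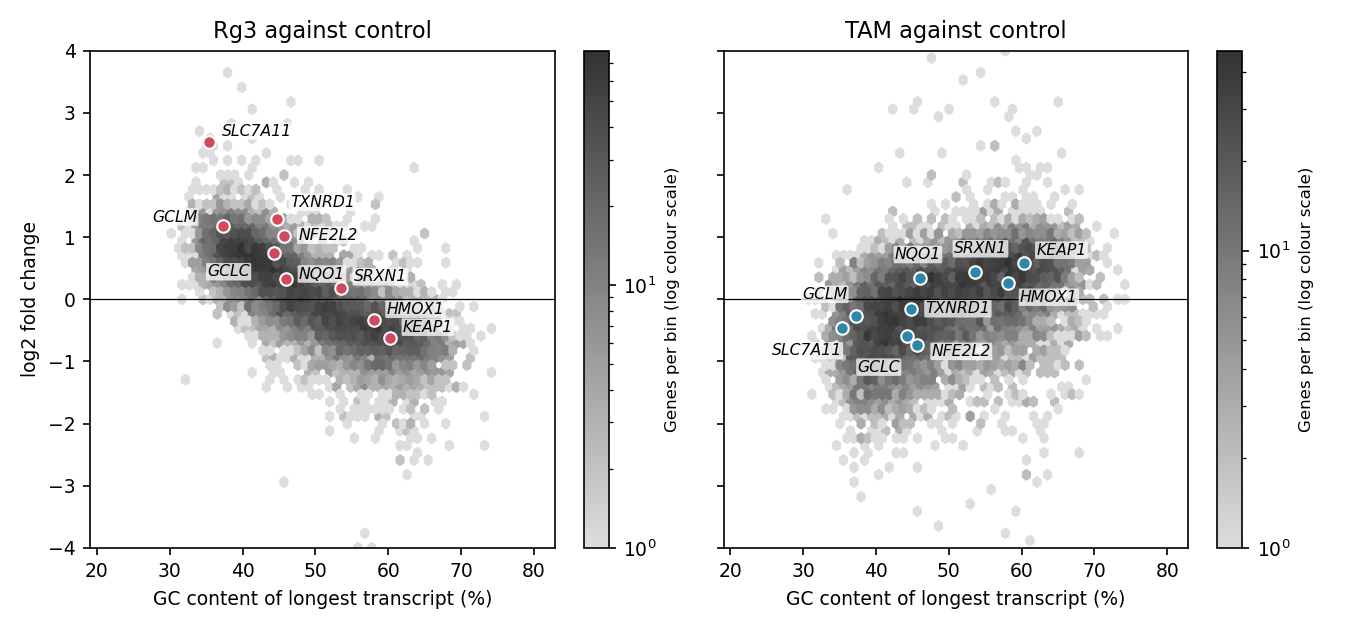
Log2 fold change with Rg3 (left) and with TAM (right) against the GC content of the longest transcript, in percent; grey bins count genes (50 counts or more in 1 of the libraries) on a log colour scale, and coloured points are the 9 genes. From SLC7A11 (35.4% GC) to KEAP1 (60.3% GC) the 9 genes tend downward with Rg3 and upward with TAM, the direction of the other genes. Some lie off that slope: SLC7A11 with Rg3, at 2.53, is above the median of 0.81 of genes under 40% GC. NFE2L2 with TAM, at -0.74, is below the median of -0.08 of genes from 45% to 50% GC.

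When a smooth trend on GC content and length was removed, 3 of the 9 genes remained higher with Rg3 (8.82% of 14279 genes with both values were higher): SLC7A11 at 1.63, TXNRD1 at 0.92 and NFE2L2 at 0.73. SLC7A11 then lay above 99.3% of genes and TXNRD1 above 96.6%. GCLM at 0.34 and GCLC at 0.32 no longer passed the limit. None of the 9 was lower (10.1% of genes were), and KEAP1 went from -0.62 to 0.01. SRXN1 was at 0.52, HMOX1 at 0.21 and NQO1 at 0.07. With TAM, none was higher (14.1% of 14019 genes) and NFE2L2, at -0.68, was the 1 gene lower (15.3%). TXNRD1, GCLM and SLC7A11, below 0 before, were then at 0.13, 0.37 and 0.31 with TAM, and HMOX1 went from 0.26 to -0.14. For TAM against Rg3, none was higher (19.1% of 14269 genes) and 4 were lower (19.5%): NFE2L2 at -1.41, SLC7A11 at -1.36, TXNRD1 at -0.79 and GCLC at -0.68.

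The wider pathway was described by 5 lists of 55 other genes, of which 48 could be compared with Rg3 and 49 with TAM. With Rg3, 10 of the 48 were higher and 7 lower, beside 25.0% and 19.5% of all genes compared, with a median log2 fold change of 0.07. With TAM, 13 of the 49 were higher and 6 lower, beside 17.4% and 23.8% of all genes, with a median of 0.35. When the trend described above was removed, 9 passed the upper and 3 the lower limit with Rg3, beside 8.82% and 10.1% of all genes. With TAM, 10 passed the upper and 6 the lower limit, beside 14.1% and 15.3% of all genes. The genes past a limit were then in part other genes. Both comparisons use the same control library.

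Of 10 genes of NRF2 control, 2 were higher and 1 lower with Rg3, beside 25.0% and 19.5% of all genes. Their median log2 fold change was 0.26. GSK3B, a kinase that marks NRF2 for degradation, had 99 counts in control and 269 in Rg3 (1.12, or 0.56 with the trend removed), and CUL3, the scaffold of the ligase that KEAP1 serves, had 475 and 975 (0.71, or -0.11 with the trend removed). The small MAF partner MAFK was lower at -0.61, with 1123 and 925 counts (0.12 with the trend removed). Small MAF partners MAFG and MAFF were at 0.01 and 0.14, the repressor BACH1 at 0.50, the ligase subunits BTRC and RBX1 at 0.58 and 0.24, the related factor NFE2L1 at -0.32 and SQSTM1, which sequesters KEAP1, at 0.28. With the trend removed, none of the 3 called genes passed a limit any longer, and MAFF (0.83) and SQSTM1 (0.82) did. With TAM, 2 of the 10 were higher and 2 lower, beside 17.4% and 23.8% of all genes, with a median of 0.28. BACH1, which competes with NRF2 for its sites, fell from 112 counts in control to 30 in TAM (-1.69, or -0.998 with the trend removed), and CUL3 from 475 to 228 (-0.85, or -0.08). MAFK had 1965 counts in TAM (1.01) and MAFG 1132 against 741 in control (0.82), and both stayed past the limit with the trend removed (0.75 and 0.78). MAFK shares 22.9% of its stretches with TMEM184A on the opposite strand, and SQSTM1 shares 50.7% with MRNIP, also on the opposite strand. SQSTM1 was at 0.55, MAFF at 0.51, NFE2L1 at 0.49, RBX1 at 0.07, GSK3B at -0.05 (0.65 with the trend removed) and BTRC at -0.47.

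NADPH is the reductant that TXNRD1, NQO1 and glutathione recycling draw on. Of 6 genes for enzymes that supply it, 3 were higher and 1 lower with Rg3, beside 25.0% and 19.5% of all genes. Their median log2 fold change was 0.37. IDH1 had 602 counts in control, 2739 in Rg3 and 465 in TAM, and ME1 had 90, 411 and 87. Both log2 fold changes were 1.86 with Rg3, and 1.39 and 1.11 with the trend removed. PGD, of the pentose phosphate pathway, had 2280, 5275 and 2583 counts, with a log2 fold change of 0.88 with Rg3 and 1.15 with the trend removed. TALDO1, of the same pathway, was at -0.67 (-0.17 with the trend removed). With TAM, none of the 6 genes was past a fold limit (17.4% of all genes were higher and 23.8% lower), and their median was 0.19.

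Of 10 other genes of glutathione metabolism, 9 were compared. With Rg3, 2 were higher and 1 lower, beside 25.0% and 19.5% of all genes (median 0.09). CHAC1, which degrades glutathione, had 118 counts in control, 242 in Rg3 and 453 in TAM, with log2 fold changes of 0.71 and 2.15. GGCT was at 0.64 with Rg3, and the transferase GSTP1 at -0.74. With the trend removed, CHAC1 was at 1.37 with Rg3 and 1.72 with TAM, while GGCT (0.20) and GSTP1 (-0.08) were inside the limits. GGCT shares 34.9% of its stretches with other genes. With TAM 3 of the 9 were higher and 1 lower, beside 17.4% and 23.8% of all genes (median 0.35). SLC3A2, the partner chain of SLC7A11 in the cystine transporter, had 2010 counts in control, 2053 in Rg3 and 3222 in TAM, and its log2 fold change was -0.30 with Rg3 and 0.89 with TAM. The glutathione synthetase GSS was at -0.48 with Rg3 and 0.65 with TAM. Neither SLC3A2 (0.51) nor GSS (0.45) passed the limit with TAM once the trend was removed. The transferase GSTM3 with TAM, at 0.41 before, then did (0.63). The lower gene with TAM, MGST1, had 18 counts in control and 1 in TAM and was looked at after its values were seen.

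Among 6 other genes of the thioredoxin system, 1 was higher and 2 lower with Rg3, beside 25.0% and 19.5% of all genes (median -0.07). With TAM, 2 were higher and 1 lower, beside 17.4% and 23.8% (median 0.53). TXN, the substrate of TXNRD1, had 1356 counts in control, 2645 in Rg3 and 1645 in TAM (0.64 and 0.48). Its inhibitor TXNIP had 100, 80 and 18 counts, with log2 fold changes of -0.65 with Rg3 and -2.27 with TAM, and of -1.09 and -2.12 with the trend removed. The mitochondrial reductase TXNRD2 was at -0.81 with Rg3 and 0.70 with TAM, and its substrate TXN2 at 0.63 with TAM. With the trend removed, TXN was at 0.21 and TXNRD2 at -0.10 with Rg3. TXNRD2 was at 0.42 and TXN2 at 0.23 with TAM, and all of these lay inside the limits. TXNL1 with TAM, at 0.17 before, then passed the upper limit (0.95).

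Of 23 genes of detoxification and heme handling, 17 were compared with Rg3 and 18 with TAM. With Rg3, 2 were higher and 2 lower, beside 25.0% and 19.5% of all genes (median 0.01). With TAM, 6 were higher and 2 lower, beside 17.4% and 23.8% (median 0.48). OSGIN1, an oxidative stress response gene, had 23 counts in control, 58 in Rg3 and 75 in TAM (1.01 and 1.91), and PIR, a nuclear protein, was at 0.61 with Rg3. The glutathione-conjugate exporter ABCC1 had 13179 counts in control, 7203 in Rg3 and 5131 in TAM (-1.20 and -1.15), and ABCC3 had 796, 317 and 596 (-1.65 with Rg3). AKR1B1, an aldo-keto reductase, had 1683, 1446 and 3836 counts (1.39 with TAM). TRIM16L, BLVRB and CBR1 were at 0.71, 0.68 and 0.59 with TAM, and UGDH, which makes the sugar donor for glucuronidation, at -1.40. With the trend removed, BLVRB (0.27) and CBR1 (0.25) were inside the limits with TAM, and the other genes named here with at least 50 counts kept their calls. TRIM16L shares 45.2% of its stretches with other genes and CBR1 22.1%. AKR1C1, which had 0 counts in control and 12 in TAM, was looked at after its values were seen.

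**Figure D4:**
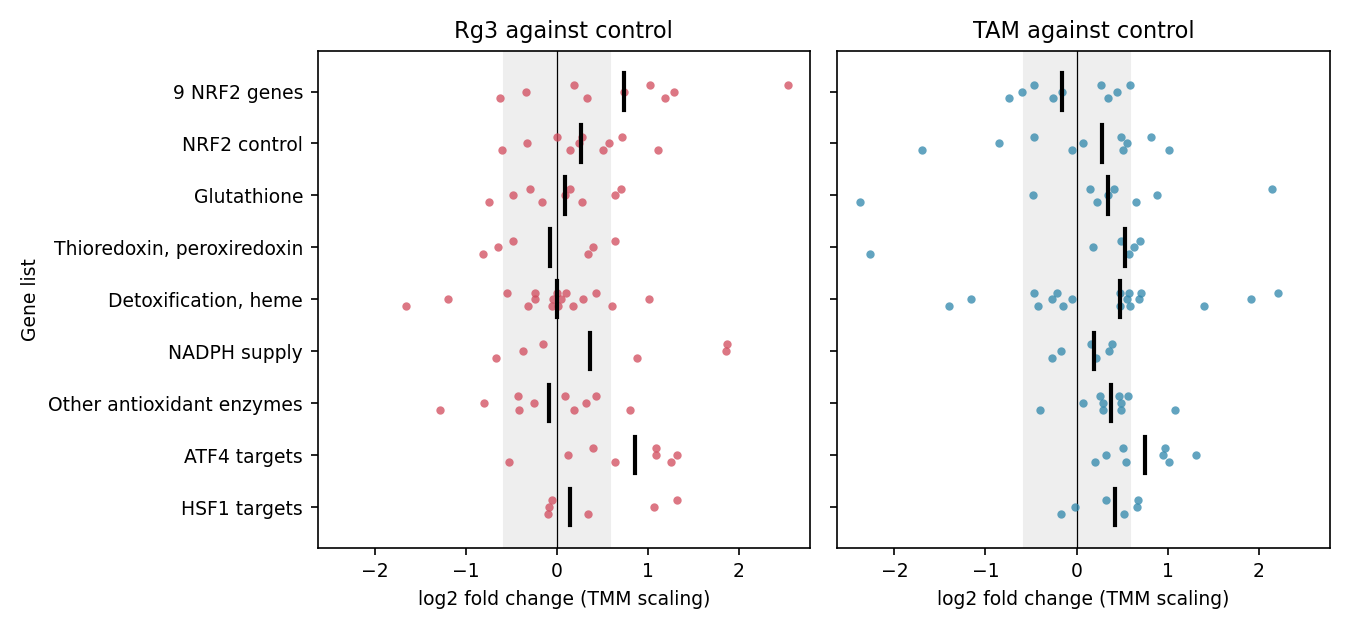
Log2 fold change of the genes of each list with Rg3 and with TAM, both set against control; each point is 1 gene compared, black bars mark list medians and the grey band lies between the fold limits of 0.67 and 1.5. The 9 NRF2 genes have a median of 0.74 with Rg3 and -0.16 with TAM, and NADPH supply has 0.37 and 0.19.

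A further list held 10 antioxidant enzymes outside these lists, such as superoxide dismutases and peroxiredoxins. With Rg3, 1 was higher and 2 lower, beside 25.0% and 19.5% of all genes (median -0.08). With TAM, 1 was higher and none lower, beside 17.4% and 23.8% (median 0.38). The mitochondrial peroxiredoxin PRDX3 was at 0.80 with Rg3, PRDX2 at -1.28 and the glutathione peroxidase GPX1 at -0.80, and GPX1 was at 1.08 with TAM. With the trend removed, PRDX3 (0.34) and GPX1 (-0.09) were inside the limits with Rg3, and PRDX2 (-0.78) was not. GPX1 with TAM just passed the upper limit (0.59). SOD2 with TAM, at 0.49 before, passed it too (1.39), so that 2 of the 10 were higher, beside 14.1% of all genes. GPX1 shares 21.5% of its stretches, mainly with processed copies.

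SLC7A11, CHAC1 and SLC3A2 are also known targets of ATF4, the factor of the integrated stress response. A list of 8 genes, made up of ATF4 itself and known targets of it, was therefore counted beside them. ATF4 was at 0.13 with Rg3 and 0.54 with TAM. With Rg3, 5 of the 8 were higher (25.0% of all genes) and none lower, with a median of 0.86, or 0.95 with the trend removed. These were ASNS at 1.32, DDIT3 at 1.25, ATF3 at 1.09, PSAT1 at 1.09 and TRIB3 at 0.64. With the trend removed, PSAT1 (0.58) did not pass the limit, while SESN2 (1.00) and ATF4 (0.61) newly did. In that setting 6 of the 8 were higher, beside 8.82% of all genes. ASNS shares 82.0% of its stretches with other genes, DDIT4 44.1%, DDIT3 30.8% and ATF4 22.9%. With TAM, 4 of the 8 were higher (17.4% of all genes) and none lower, with a median of 0.75, or 0.54 with the trend removed. These were DDIT4 at 1.32, SESN2 at 1.01, TRIB3 at 0.97 and DDIT3 at 0.95. Whether ATF4 had a part in the levels of SLC7A11, CHAC1 or SLC3A2 was not tested. Of 6 heat shock genes, targets of HSF1, 2 were higher and none lower with each agent, beside the same 25.0% and 17.4% of all genes. Their medians were 0.15 with Rg3 and 0.42 with TAM. When the trend was removed, 1 of the 6 was higher with each agent, beside 8.82% of all genes with Rg3 and 14.1% with TAM. Of 4 targets of the aryl hydrocarbon receptor, 2 were higher and none lower with each agent (medians 0.50 and 0.46). Of all genes, 25.0% were higher with Rg3 and 17.4% with TAM. These were TIPARP, at 0.98 with Rg3 (0.45 with the trend removed) and 0.83 with TAM, and CYP1A1, which had 4 counts in control, 10 in Rg3 and 21 in TAM and whose interval with Rg3 includes 0 (-0.80 to 3.12). CYP1A1 was looked at after its values were seen.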

How the data were processed

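RNA from 3 PANC-1 samples (control, Rg3, TAM, 1 library each) had been extracted with TRIzol, purified on RNeasy columns and sequenced on the Ion Proton. The methods name FAST-QC, TopHat and MAQ, and the submitters' processing notes name GRCh38. The counting tool, annotation and use of strand are not given in the sources used here. The authors deposited raw read counts per gene symbol, and 0 columns belonged to no library.

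From these counts, log2 fold changes were taken in Python 3.11.15 after TMM scaling, with factors of 1.016 (control), 1.12 (Rg3) and 0.879 (TAM) from edgeR 4.0.16 in R 4.3.3. TMM put log2 fold changes 0.21 higher with TAM than library totals and moved those with Rg3 by -0.14. A gene was compared where 1 of the libraries had 10 counts or more. For a fold, counts below 3 became 3, and a count of 0 does not show that a gene was absent. Intervals are exact Clopper-Pearson for folds and exact Poisson for levels. Limma, named in the methods, was not run, since it needs replicates. GC content, length and shared 50-base stretches came from GENCODE 29, with a value for 86.6% of genes compared with Rg3 and 87.2% with TAM, and for each of the 9 genes. The trend on GC content and length was a loess fit (span 0.3). The fold comparison and the removal of the trend were tested on simulated counts. The simulation held counting error only and used equal scaling of the libraries.

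The members and lists were chosen with earlier results of these data known. All 9 members and the NRF2 control genes are named; of the other lists, genes past the fold with at least 50 counts in either library, at most the 4 largest and 4 smallest folds a list and comparison. Alternatives were library totals, DESeq2 1.42.0 size factors, filters of 1 or 50 counts, fold limits of 2 and 0.5, an added exact binomial test, an added edgeR exact test with the coefficient of variation assumed at 0.2 or at 0.4, and the trend removed.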

Additional observations from a re-analysis of the deposited data

How the results depend on the processing

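No paired analysis was possible because there was 1 library per condition. No library was left out and no spread between cultures was measured, as every group is a single library. Of the values of the 9 genes under the 9 alternatives, 182 kept their direction and side of the limits, 35 no longer passed, 2 newly passed, 20 stayed inside the limits but moved, in some cases across 0 (such as HMOX1 with Rg3, to 0.21 without the trend), and 3 that had been called changed sign. SLC7A11 with TAM had too few reads for the filter of 50 counts. A filter of 1 count and an added binomial test on the reads of 2 libraries changed no call of the 9 genes. The cause of the changes below was not tested.

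With library totals in place of TMM, calls split as 5180 higher and 2321 lower with Rg3 (69.1% higher, against 56.1% with TMM), 1576 and 5259 with TAM (23.1% against 42.3%) and 3105 and 7499 for TAM against Rg3 (29.3% against 45.9%). Of the 9 genes, 0 were then lower with Rg3 and 1 was higher for TAM against Rg3, and SLC7A11 passed the lower limit with TAM at -0.67. Of the 55 other pathway genes, 4 were lower with Rg3, 7 were higher and 10 lower with TAM, and 10 were higher for TAM against Rg3. With DESeq2 size factors, KEAP1 passed the upper limit with TAM (0.62) and GCLC no longer passed the lower one (-0.56). Thus 1 of the 9 was higher and 1 lower with TAM, beside 3033 higher and 3651 lower of all 16079 genes compared. With at least 50 counts, fewer genes were compared, and 2139 of 12594 genes were lower with Rg3 and 2529 of 11921 with TAM. With at least 10 counts these were 3223 of 16487 and 3823 of 16079.

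With fold limits of 2 and 0.5, 1470 genes passed the upper and 1149 the lower limit with Rg3, 862 and 1824 with TAM, and 2781 higher for TAM against Rg3. Of the 9, 0 were lower with either agent and 1 was higher for TAM against Rg3. Of the pathway genes, 4 were higher and 2 lower with Rg3, 5 higher with TAM and 10 higher for TAM against Rg3.

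With an assumed variation of 0.2 between cultures, 64 genes passed the upper and 92 the lower limit with Rg3, 109 and 365 with TAM, and 2156 and 2939 for TAM against Rg3. Of the 9, only SLC7A11 was called with Rg3 (edgeR exact test, Benjamini-Hochberg adjusted p = 0.000158; 1 higher, 0 lower), 0 were lower with TAM and 1 was higher for TAM against Rg3. Of the pathway genes, 2 were higher and 1 lower with Rg3, 4 higher with TAM and 10 higher for TAM against Rg3. At 0.4, 0 genes were higher and 1 lower with each agent, 0 and 0 for TAM against Rg3, and 0 of the 9 or of the pathway genes were called in any comparison.

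Once the smooth trend was taken out, 1260 genes passed the upper and 1448 the lower limit with Rg3, 2139 lower with TAM, and 2720 higher and 2787 lower for TAM against Rg3. Of the 9, 3 were higher and 0 lower with Rg3 (median 0.34), 1 was lower with TAM, and 0 were higher for TAM against Rg3 (median -0.36). Of the pathway genes, 3 were lower with Rg3 and 6 higher for TAM against Rg3. Signs changed for KEAP1 with Rg3 (0.012) and, for TAM against Rg3, for HMOX1 (-0.36) and GCLM (0.024).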
